A study of Mus musculus with 2 samples.

Results

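The genes Mir21a, Mir199a-1, Mir199a-2, Mir199b and Mir214 make microRNAs that are known from fibroblasts and from the scarring of the heart. They were chosen by name from published biology, with earlier results of these data known. All 5 were found among the 2202 miRNA genes listed for mouse heart. Small RNA was sequenced from heart tissue of 2 male mice of the cross B6CASTF1/J (C57BL/6J by CAST, first generation) at an age of 25 days. No treatment or injury is named, so both libraries form 1 group and the design holds no disease contrast. Libraries came from total RNA and were limited to sizes below 30 nucleotides. They are named here by their labelled numbers, replicate 2 and replicate 1. Each animal has its own number, but 1 donor identifier stands for both, so the spread between libraries may be technical. The labels also state the age once with months as the unit. Days are used here.

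MicroRNAs are cut from folded transcripts called hairpins, and 1 or both arms of a hairpin can leave a mature strand. The mature strand pairs with messenger RNAs mainly through its seed, bases 2 to 8, and lowers their translation or stability. miR-21 is known to accumulate in cardiac fibroblasts under stress and to repress Spry1, an inhibitor of growth factor signalling. miR-214 and the miR-199a of Mir199a-2 come from the long noncoding transcript Dnm3os, which is active in mesenchymal cells. miR-214 is known in the mouse heart as a repressor of the sodium-calcium exchanger Slc8a1. miR-199b is known there as a repressor of the kinase Dyrk1a.

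The mature sequences are shown first, because a read whose letters are the same at several loci cannot be given to 1 gene. Sequences are those of RefSeq for GRCm38.p6, all 5 hairpins were matched by symbol, and capitals mark the seed.
miR-21a-5p: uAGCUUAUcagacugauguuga
miR-21a-3p: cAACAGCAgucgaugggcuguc
miR-214-3p: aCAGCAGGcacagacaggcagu
miR-214-5p: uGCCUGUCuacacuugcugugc
miR-199a-5p: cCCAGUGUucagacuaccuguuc
miR-199a-3p and miR-199b-3p: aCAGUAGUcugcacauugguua
Each strand of Mir21a and Mir214 was found in 1 listed gene. The 5p strand of miR-199a was found in both Mir199a-1 and Mir199a-2. The 3p strand was found in Mir199a-1, Mir199a-2 and Mir199b, letter for letter. The mature miR-199b-5p has no entry in the sequence table. The members fell into 6 seed groups. Outside the members, Mir21c carried the seed of miR-21a-5p and Mir761 carried the seed of miR-214-3p. Mir21c and Mir761 had 0 counts in both hearts. A count of 0 was taken to allow up to 3 counts, a set limit of 0.574 CPM in replicate 2 and 0.608 CPM in replicate 1.

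The hairpins of the 3 Mir199 genes are shown to locate the shared letters. Capitals mark bases that lie in a run of at least 20 bases held by another listed miRNA gene.
Mir199a-1: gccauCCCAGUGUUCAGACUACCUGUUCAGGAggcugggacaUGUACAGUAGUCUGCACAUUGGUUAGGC
Mir199a-2: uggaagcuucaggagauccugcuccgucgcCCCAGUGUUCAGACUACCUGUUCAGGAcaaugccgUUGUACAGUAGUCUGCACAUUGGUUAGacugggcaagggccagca
Mir199b: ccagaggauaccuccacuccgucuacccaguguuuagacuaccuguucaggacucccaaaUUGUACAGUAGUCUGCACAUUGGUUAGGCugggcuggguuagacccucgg
Shared runs covered 78.6% of the Mir199a-1 hairpin, 49.1% of Mir199a-2 and 26.4% of Mir199b. No base of Mir21a or Mir214 lay in such a run. In Mir199b the stretch from base 26 of the hairpin matched miR-199a-5p except for C10U, counted from 1 at the 5′ end of miR-199a-5p. That 1 letter made the stretch unique among the listed genes. Mir199a-1 and Mir199a-2 differed from each other 1 base upstream of the 5p strand and 5 bases downstream of it. At the 3p strand, Mir199a-2 became unique after 2 further bases at its 3′ end and Mir199b after 4. In Mir199a-1 no extension to the 3′ end of the annotated hairpin was unique. Without gaps, Mir199a-1 was identical to Mir199b at 60 of 68 aligned bases (88.2%) and to Mir199a-2 at 58 of 69 (84.1%).

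**Figure D1:**
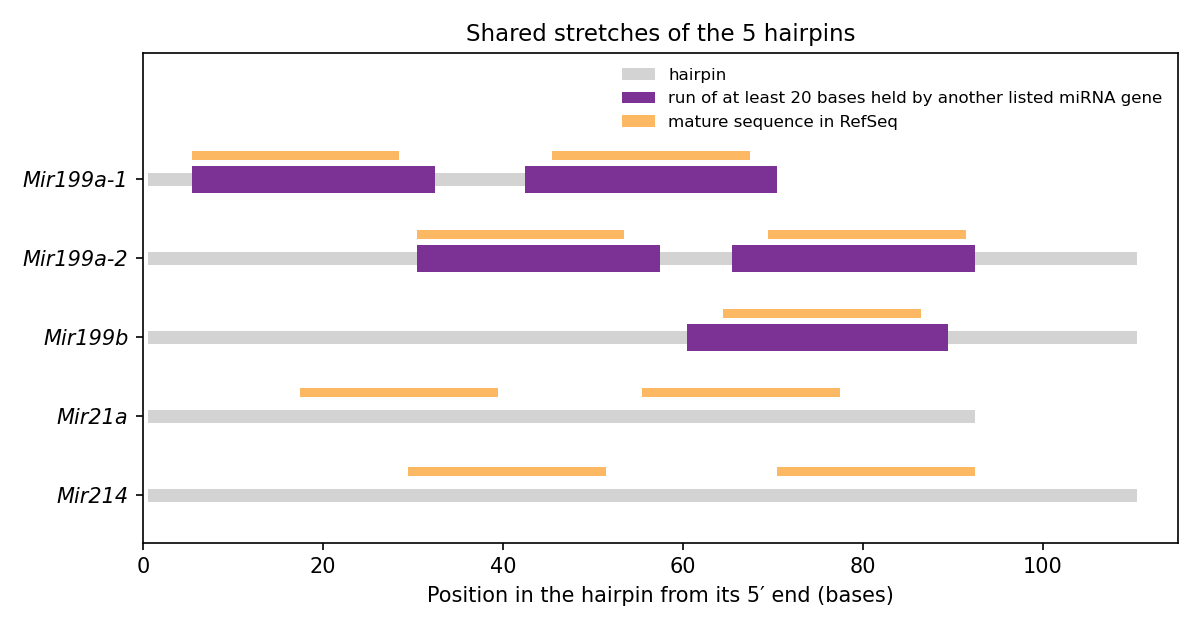
Map of the 5 hairpins, with position from the 5′ end in bases on the horizontal axis. Grey bars are hairpins, purple blocks are runs of at least 20 bases held by another listed miRNA gene, and orange bars are mature sequences in RefSeq. All annotated mature strands of the Mir199 genes lie within purple blocks, while Mir21a and Mir214 have none.

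The files give read counts per gene on the gene's own strand. Replicate 2 held 5229819 such counts and replicate 1 held 4930853, and levels are these counts scaled to a total of 1000000 (CPM). Mature strands measure 22 or 23 bases, so counts were not divided by length. A further 5375745 reads in replicate 2 and 5497619 in replicate 1 were placed at several loci and belong to no gene's count. These make up 37.4% and 41.6% of all reads in replicates 2 and 1. The heart label was met by the myosin-hosted genes. Mir208a was at 3562 CPM in replicate 2 and 1361 in replicate 1, Mir208b at 192 and 191, and Mir499 at 2758 and 2933. Mir1a-1 and Mir1a-2, with Mir133a-1 and Mir133a-2, are muscle genes and lay between 1.34 and 34.4 CPM in replicate 2 and between 0.608 and 41.2 CPM in replicate 1, and all 4 share a run of at least 20 bases with a gene at another locus.

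Mir21a and Mir214 were abundant heart miRNA genes, while Mir199a-2 and Mir199b had far lower assigned counts and Mir199a-1 had none. Mir21a had 27935 counts in replicate 2 and 7592 in replicate 1, or 5341 and 1540 CPM. It ranked 28th of 2202 genes in replicate 2 and 54th in replicate 1. Mir214 had 21823 counts in replicate 2 and 9209 in replicate 1, or 4173 and 1868 CPM, ranking 32nd and 44th. Both genes were higher in replicate 2, and neither heart lacked them. In bulk tissue, fewer cells of a type and less RNA per cell cannot be told apart.

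Mir199b had 49 counts in replicate 2 and 64 in replicate 1, or 9.37 and 13.0 CPM. Mir199a-2 had 50 counts in replicate 2 and 42 in replicate 1, or 9.56 and 8.52 CPM. Mir199a-1 had 0 counts in both hearts, so its assigned level was at most 0.574 CPM in replicate 2 and 0.608 CPM in replicate 1. These limits cover counting error only and hold for reads with 1 place in the genome. The 3 Mir199 genes together had 99 counts in replicate 2 and 106 in replicate 1. A read whose letters are the same at several loci cannot be given to 1 gene, and how many of the several-locus reads came from the Mir199 genes was not tested. The assigned counts are thus a lower limit on reads from these genes.

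**Figure D2:**
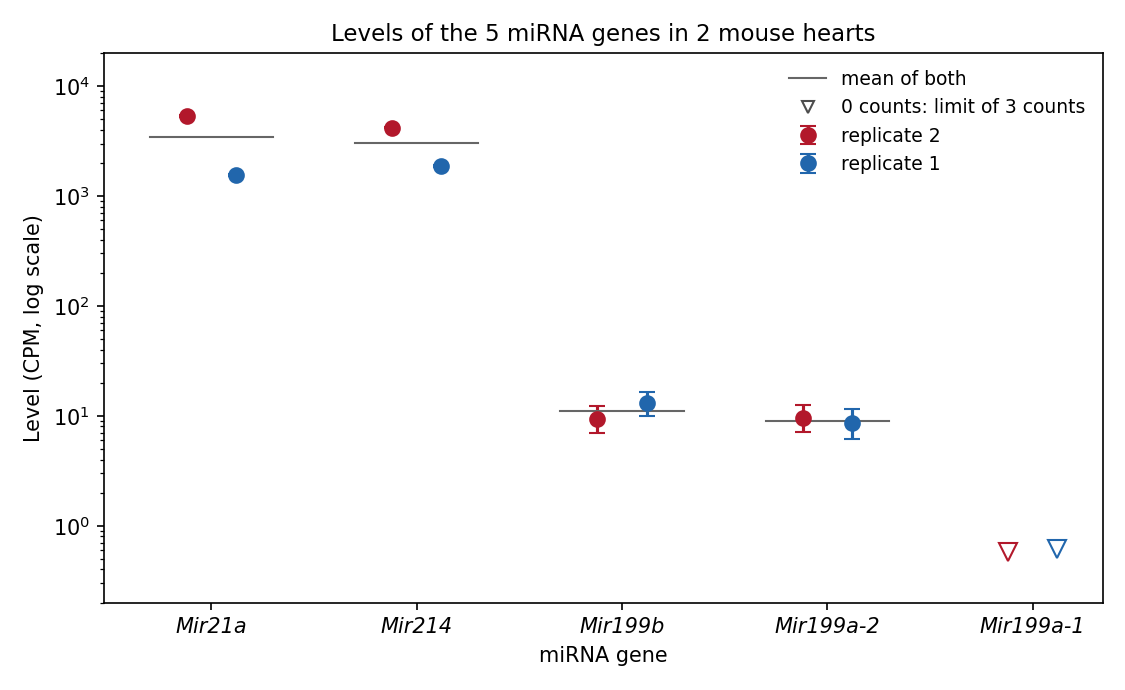
Level of each gene in CPM on a log axis, with replicate 2 left of replicate 1. Points carry exact 95% counting intervals, grey lines are means, and open triangles mark the limit that 0 counts allow. Mir21a and Mir214 lie between 1540 and 5341 CPM, and Mir199b and Mir199a-2 lie near 10 CPM.

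As means, Mir21a stood at 3441 ± 2688 CPM, Mir214 at 3020 ± 1630 CPM, Mir199b at 11.2 ± 2.55 CPM and Mir199a-2 at 9.04 ± 0.737 CPM (SD, n = 2 each). The means of Mir21a and Mir214 lay closer together than either SD. Both genes were higher in replicate 2, so these SDs do not compare the genes within a library. Within each library the genes differed, and their order changed between hearts. Mir21a had 1.28 times the counts of Mir214 in replicate 2 (exact 95% interval 1.26 to 1.30) and 0.824 times in replicate 1 (0.800 to 0.850). For Mir199b over Mir199a-2 the quotient was 0.98 in replicate 2 (0.647 to 1.48) and 1.52 in replicate 1 (1.02 to 2.31). The interval in replicate 2 leaves their order there unresolved. The means of Mir214 and Mir199b lay further apart than either SD. Mir214 had 445 times the counts of Mir199b in replicate 2 and 144 times in replicate 1. The members held 0.953% of assigned counts in replicate 2 and 0.343% in replicate 1. Mir21a and Mir214 supplied 99.8% of the members' counts in replicate 2 and 99.4% in replicate 1.

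Mir199a-2 and Mir214 lie on 1 precursor, Dnm3os, and yet their counts differed by more than 2 orders of magnitude. In mm10, Dnm3os spans chr1:162217623-162225550 on the plus strand, opposite to an intron of the dynamin gene Dnm3. Mir199a-2 (ENSMUSG00000070126.1) lies at chr1:162217814-162217923 and Mir214 (ENSMUSG00000065516.1) at chr1:162223368-162223477, with 5444 bases between the hairpins. In 2 of the 6 annotated Dnm3os transcripts, a single long exon holds both hairpins whole. Mir214 had 436 times the counts of Mir199a-2 in replicate 2 (exact 95% interval 331 to 588) and 219 times in replicate 1 (162 to 304). The quotient was 1.99 times larger in replicate 2 (exact 95% interval 1.29 to 3.06, two-sided Fisher's exact test, adjusted p = 0.00153 over 6 pairs of members). That test covers counting error only. The shared letters of Mir199a-2 bear on this quotient, and an unequal output of the 2 hairpins cannot be told apart from reads lost to several loci.

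**Figure D3:**
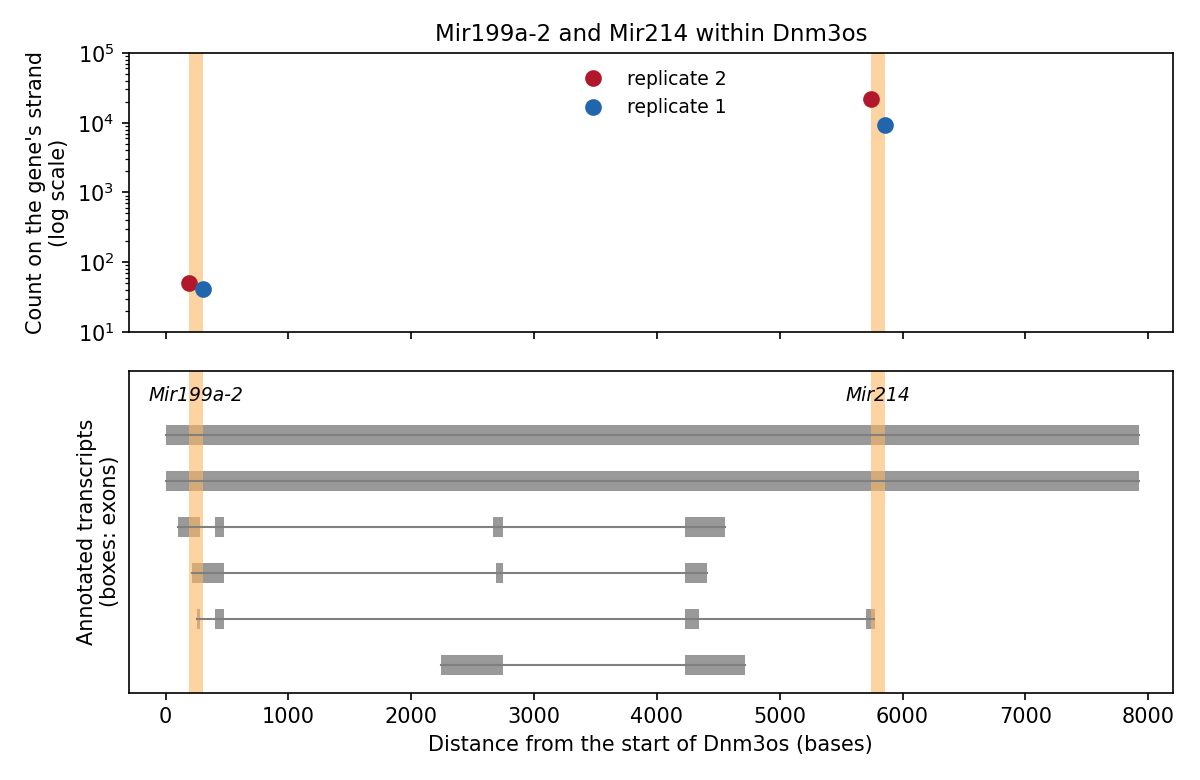
Dnm3os with the distance from its start in bases on the horizontal axis. The upper panel gives the counts of both hairpins on a log axis, with points shifted slightly sideways, and the lower panel the annotated transcripts with exons as boxes and hairpins as orange bands. Mir214 had 21823 and 9209 counts in replicates 2 and 1, and Mir199a-2 had 50 and 42.

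The other members lie at other loci. Mir21a (ENSMUSG00000065455.1) is at chr11:86584067-86584158 on the minus strand, within the 3′ UTR of Vmp1, an autophagy gene transcribed from the same strand. Mir199a-1 (ENSMUSG00000065547.1) is at chr9:21496495-21496564 on the minus strand, and Mir199b (ENSMUSG00000092807.1) is at chr2:32318460-32318569 on the plus strand. Mir199a-1 lies opposite to an intron of Dnm2 and Mir199b opposite to an intron of Dnm1, so all 3 Mir199 genes run antisense to a dynamin gene. No other listed miRNA gene overlaps a member. On the opposite strand, Mir21a had 2 counts in replicate 2 and 0 in replicate 1, and Mir214 had 1 and 0. The Mir199 genes had none on that strand. By folding with ViennaRNA, the minimum free energy was -67.5 kcal/mol for the Mir214 hairpin, -46.2 for Mir21a, -42.5 for Mir199a-2, -42.1 for Mir199b and -28.9 for the shorter Mir199a-1.

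Mir21a and Mir214 were higher in replicate 2, and Mir199a-2 and Mir199b did not differ beyond counting error. The hearts were compared gene by gene by an exact binomial test on the counts with Benjamini-Hochberg adjustment over 356 genes with at least 10 counts in both libraries. Of all tested genes 63.5% were called in either direction, 32.9% higher and 30.6% lower in replicate 2, so a call is common in these libraries. The test compares these 2 libraries and covers counting error only. Of the members, 4 had enough counts to be tested and 2 of them were called, both higher in replicate 2. Mir21a was 3.47-fold higher in replicate 2 (exact 95% interval 3.38 to 3.56), a log2 ratio of 1.79, with 2437 as the −log10 of the adjusted p. Mir214 was 2.23-fold higher (2.18 to 2.29), a log2 ratio of 1.16, with 991 as the −log10 of the adjusted p. Among the 233 genes that averaged 100 counts or more, Mir21a had the 7th highest ratio and Mir214 the 16th. The SD of the log2 ratio over these genes was 0.91, with a median of 0.06.

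Mir199a-2 had a ratio of 1.12 (0.730 to 1.73, exact binomial test, adjusted p = 0.697). Mir199b had a ratio of 0.722 (0.487 to 1.06, exact binomial test, adjusted p = 0.130). At this depth these intervals leave room for a ratio as high as 1.73 in Mir199a-2 and as low as 0.487 in Mir199b, so they do not show equal levels. Mir21a and Mir214 did not move by the same factor. The odds of Mir21a over Mir214 were 1.55 times larger in replicate 2 (1.50 to 1.61, Fisher's exact test, two-sided, adjusted p = 1.13e-132). Of the 6 pairs of members, 5 differed in ratio after adjustment, each holding Mir21a or Mir214. The exception was Mir199b with Mir199a-2 (odds ratio 0.643, 0.356 to 1.16, Fisher's exact test, adjusted p = 0.125). These pair tests also cover counting error only, and the pairs reuse the ratios of the same 4 members. Over all 356 tested genes, 63.5% were called in either direction, so a difference between 2 well-counted genes is common here. The share of all gene pairs that differ was not computed.

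**Figure D4:**
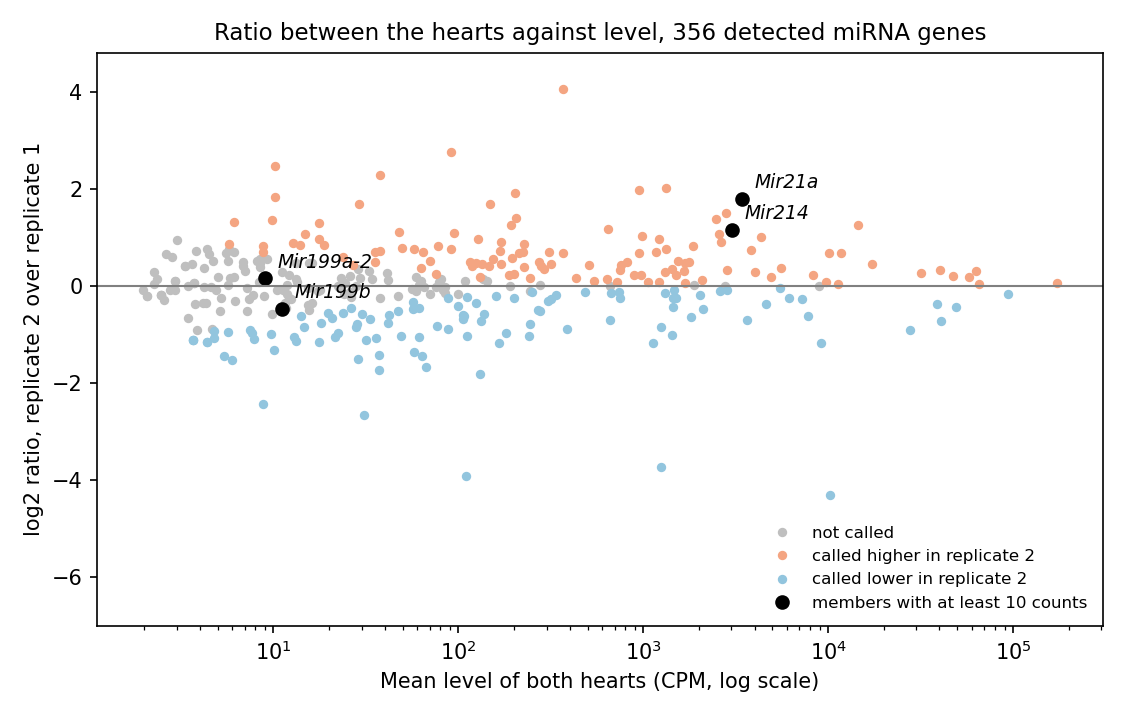
The log2 ratio of replicate 2 over replicate 1 against the mean level in CPM (log axis) for the 356 tested genes, coloured by call. Black points are the members with at least 10 counts in both hearts. Mir21a (1.79) and Mir214 (1.16) lie among the higher ratios at their level, while Mir199a-2 (0.16) and Mir199b (-0.47) lie within the cloud of low counts.

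Markers of several cell types differed between the same hearts. Beside them, 32.9% of all 356 tested genes were called higher in replicate 2 and 30.6% lower. The marker lists were chosen with earlier results of these data known. The mesenchymal genes Mir140 and Mir455, known from cartilage and connective tissue, were both called higher in replicate 2, with a summed level of 5559 CPM in replicate 2 and 2365 CPM in replicate 1. Mir455 reached 11171 counts in replicate 2 against 2597 in replicate 1, a ratio of 4.06 (exact 95% interval 3.89 to 4.23). Mir140 was 1.86-fold higher (1.82 to 1.91). The smooth muscle genes Mir143 and Mir145a were both called higher, at a sum of 36447 CPM in replicate 2 and 30025 CPM in replicate 1. In replicate 2, the endothelial gene Mir126a was 1.23-fold higher (1.22 to 1.24), and Mir126b had 3 counts in each heart.

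Other cell types did not all move that way. Their calls stand beside the same 32.9% higher and 30.6% lower over all tested genes. Of 7 cardiomyocyte genes 5 were tested, with Mir208a called higher, Mir499 called lower (not called with DESeq2 scaling) and 3 not called, and their sum was 6556 CPM in replicate 2 and 4531 CPM in replicate 1. Of 6 leukocyte genes 5 were tested. Mir150, Mir146 and Mir223 were called higher in replicate 2, Mir142 lower, Mir155 was not called, and Mir142b was at 0 counts in both hearts. Their sum was 6444 CPM in replicate 2 and 5437 CPM in replicate 1. The red cell genes Mir451a and Mir144 were both called lower in replicate 2, at a sum of 1161 CPM in replicate 2 and 21812 CPM in replicate 1. With the red cell genes left out of the totals, the log2 ratio was 1.76 for Mir21a and 1.13 for Mir214. The part of the other marker genes in the members' ratios was not tested.

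Other miRNAs that studies have tied to fibrosis were also measured. Of 9 genes reported to promote it, 6 were called higher in replicate 2, 1 lower and 2 not called, beside 32.9% higher and 30.6% lower over all 356 tested genes. The list's median log2 ratio was 1.09, against 0.02 over all tested genes, and its summed level was 12342 CPM in replicate 2 and 6752 CPM in replicate 1. Mir34a, known from senescence and the p53 response, reached 21794 counts in replicate 2 against 7209 in replicate 1, which is 2.85-fold higher (2.78 to 2.93). Mir208a, hosted by the alpha-myosin gene, was 2.62-fold higher (2.54 to 2.69), and Mir132, a hypertrophy regulator, was 2.26-fold higher (2.14 to 2.38). Mir155, a leukocyte miRNA, had a ratio of 0.994 (0.971 to 1.02, exact binomial test, adjusted p = 0.736), and it passed as lower with TMM scaling or without red cell genes and as higher with DESeq2 scaling. Of these 9 genes, 2 share a run of at least 20 bases with a gene at another locus.

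Of 20 genes reported to restrain fibrosis, 18 were tested, 13 were called higher in replicate 2, 3 lower and 2 not called. Over all tested genes, 32.9% were called higher and 30.6% lower. The list's median log2 ratio was 0.38, while its summed level was lower in replicate 2, at 62039 CPM in replicate 2 and 71531 CPM in replicate 1. The list holds 13 genes that share such a run. The most abundant members were Mir26b, Mir30d, Mir30a and Mir30e, of which the Mir30 genes are known to repress connective tissue growth factor. Mir26b stood at 19091 CPM in replicate 2, against 36056 CPM in replicate 1, a ratio of 0.529 (0.525 to 0.534). The list's lower sum in replicate 2 rests on Mir26b. In Mir30d the ratio was 1.36 (1.35 to 1.38), in Mir30a 1.05 (1.04 to 1.07) and in Mir30e 0.969 (0.953 to 0.985). Mir30e passed as higher with DESeq2 scaling but stayed lower with DESeq2 factors from tested genes. Both lists were chosen with earlier results of these data known.

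**Figure D5:**
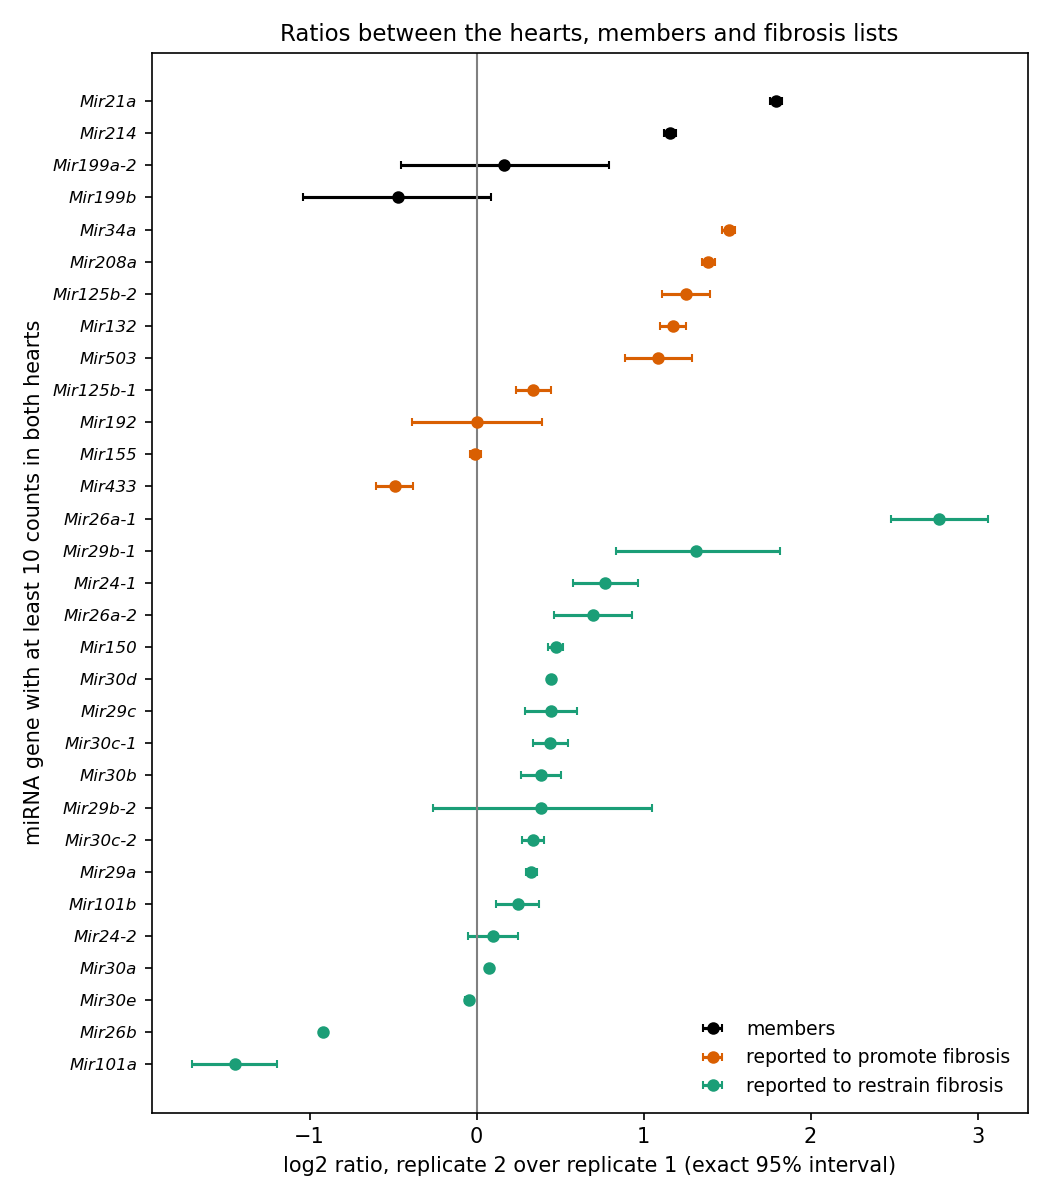
The log2 ratio of replicate 2 over replicate 1, with exact 95% intervals, for each gene with at least 10 counts in both hearts. Members are black, genes reported to promote fibrosis orange and genes reported to restrain it green. Mir21a and Mir214 lie right of 1. Genes of both lists lie on either side of 0, with Mir34a (1.51) and Mir26a-1 (2.76) to the right and Mir433 (-0.49) and Mir26b (-0.92) to the left.

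Over the 2 libraries, likeness to a member can only be read as a near ratio. Among the genes that averaged 100 counts or more, the nearest log2 ratios to that of Mir21a were those of Mir669l (1.69), Mir222 (1.69) and Mir298 (1.91). Mir132 (1.17), Mir340 (1.11) and Mir503 (1.09) were nearest to Mir214. Nearest to Mir199a-2 were Gm26117 (0.16), Mir7j (0.16) and Mir574 (0.17), and nearest to Mir199b were Mir485 (-0.46), Mir369 (-0.48) and Mir92-1 (-0.48). With 2 libraries such nearness describes 1 ratio per gene and carries no test.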

How the data were processed

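The deposited files list raw counts of reads for every miRNA gene, on assembly mm10 with annotation M21, per the submitters' file descriptions. For aligner and counter, a name is not given in the sources used here. Of 3 count columns, the column of the gene's strand was used. The 4 entries that name no gene were left out of totals; several-locus reads were 37.4% and 41.6% of all reads in replicates 2 and 1, unmapped reads 20.2% and 15.0%, and reads outside miRNA genes 6.00% and 6.03%. CAST alleles were counted against the C57BL/6J build.

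Levels are CPM, and log2 ratios use a pseudocount of 0.5 counts. One group leaves no edgeR contrast, so genes were compared by exact binomial tests (scipy 1.17.1) with Benjamini-Hochberg adjustment at 0.05. The code was tried on counts simulated with counting error only, which is the error the test assumes. That trial says nothing about spread between hearts. Intervals are Clopper-Pearson at 95% and cover counting error only. TMM came from edgeR 4.0.16 and size factors from DESeq2 1.42.0. The DESeq2 factors were 1 for both libraries, so that scaling made no correction for depth. From tested genes alone they were 1.04 for replicate 2 and 0.964 for replicate 1. With these, Mir499 and Mir30e stayed lower and Mir155 was not called. Hairpins were folded with ViennaRNA 2.7.2 and aligned with Biopython 1.88. Shared runs were searched in listed miRNA hairpins only.

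Members and lists were chosen with earlier results of these data known. Named genes are the members, genes overlapping them or sharing a seed, the 3 nearest ratios per member, and in each list the 4 most abundant members and those at 0 counts. Mir223, Mir26a-1, Mir433, Mir1a-1 and the Mir133a genes were named after their values were seen.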

Additional observations from a re-analysis of the deposited data

How the results depend on the processing

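The called direction of Mir21a and Mir214 held under all 8 alternatives tried for each, with log2 ratios from 1.75 to 1.88 for Mir21a and from 1.11 to 1.24 for Mir214. These were TMM and DESeq2 scaling, unstranded counts, a total of all reads, minimum counts of 1 and 100, and 2 alternatives chosen after seeing the data, a total without red cell genes and DESeq2 factors from tested genes. The minimum counts cannot change a gene's ratio and could alter only the adjustment. Scalings and other totals shift all genes by a common factor, so these alternatives are no independent checks. Mir199a-2 and Mir199b stayed without a call in the 7 alternatives that could test them, with log2 ratios from 0.12 to 0.25 (exact binomial test, adjusted p from 0.562 to 0.829) and from -0.51 to -0.38 (adjusted p from 0.0917 to 0.252). A minimum of 100 counts leaves both out. Called genes numbered 180 to 237 over these settings, but the number of tested genes changed too. With a minimum of 1 count 237 of 594 tested genes were called, and with a minimum of 100 counts 180 of 222. The main setting called 226 of 356, so the share of genes called depended on the minimum count.

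Levels moved by more than the spread with another total. With unstranded counts the mean was 12.4 CPM for Mir199a-2 and 15.4 CPM for Mir199b. Over all reads it was 3.33 CPM for Mir199a-2, 4.13 CPM for Mir199b and 1108 CPM for Mir214. The mean of Mir21a also depended on the total, at 1260 CPM over all reads and 4742 CPM with unstranded counts, within its wide spread. Without either replicate only 1 library is left and no test remains. Depth limits Mir199a-2 and Mir199b, whose intervals rest on fewer than 100 counts per heart. No paired analysis was possible because the libraries form 1 group.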
